A study of Mus musculus with 11 samples.

Results

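The genes described here are effectors of the type I interferon response: 36 genes chosen by symbol, all 36 of which were found among the 13636 genes of a table of mouse liver RNA sequencing. They are interferon-stimulated genes whose products act on viruses or on the response itself. The list leaves out the oligoadenylate synthetases, the guanylate-binding and immunity-related GTPases, the nucleic acid sensors and the STAT and IRF transcription factors. One member, Ifi47, is itself known as a GTPase of the immunity-related family and was kept because the list names it.

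Type I interferons are secreted proteins that bind a common receptor, IFNAR, on nearly every cell. The receptor's kinases JAK1 and TYK2 phosphorylate STAT proteins, which join IRF9 and bind a short DNA element, the interferon-stimulated response element, in the promoters of the genes they switch on. The products of those genes block viral entry, translation and replication, tag proteins with the ubiquitin-like protein ISG15, or feed back on the receptor. In liver both hepatocytes and non-parenchymal cells such as Kupffer cells are known to respond.

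The livers came from male C57BL/6J mice, an inbred laboratory strain, that were put on Western diet, a fat-rich chow, at 8 weeks of age for 1 month before treatment. All 3 groups shared this diet. The first group received PBS, the saline vehicle (4 libraries), the second a scramble oligomer (3 libraries) and the third a mimic of the microRNA miR-30c (4 libraries). Injections ran over 6 weeks, with both oligomers at doses that rose from 2.5 mg/kg by way of 5.0 mg/kg to 7.5 mg/kg, and the labels assign no dose or animal to a single library and do not describe a carrier. Nothing states that libraries came from separate mice, so the spread behind each p-value is that of the libraries and may be technical.

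Whole liver was sequenced, so more cells of a type and more RNA per cell cannot be told apart in any result. The unit is scaled CPM: counts of reads divided by a library size that the authors adjusted per library. It is not divided by gene length, so levels are compared between libraries and never between genes. The counted reads of a library numbered from 39705157 to 60399018 in the mimic libraries, from 62848115 to 101380174 in the PBS libraries and from 74519792 to 88869950 in the scramble libraries. The deposited genes appear to have passed a filter on low CPM, described below. A gene that was low in PBS and scramble may thus have been kept through its mimic values alone. Every effector gene was above 0 in all 11 libraries. The mean over all libraries was below 5 scaled CPM for 7 of the 36 and below 1 for 0. All 10 hepatocyte markers were measured and above 0 in every library, with a summed level of 31031.8 to 36041.8 in the mimic libraries and 38722.5 to 45960.6 in the others. A gene is called higher or lower where limma's adjusted p, over all 13636 genes, was below 0.05. Log2 changes were computed from log2(value + 1) and come out smaller than the true ratio where values are low.

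The mimic carries the sequence of mmu-miR-30c-5p, shown here from RefSeq (GRCm38.p6) with the seed, bases 2 to 8, in capitals, because the seed sets which transcripts a microRNA pairs with. The stretch below it is the one place in the 3′ UTR of Herc6 that matches this seed. It is shown because Herc6 was the one effector gene that was lower in the mimic libraries, which was known when the stretch was chosen, and the capitals mark the match.
mmu-miR-30c-5p: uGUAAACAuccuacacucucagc
Herc6 seed match: atgtgagaTGTTTACtggactcc
The Herc6 stretch lies at chr6:57664013-57664035 on the plus strand of GRCm38, with the match at base 1107 of a 3′ UTR of 1718 bases in GENCODE M21. A seed match (TGTTTAC) was present in the 3′ UTR of 4 of the 36 effector genes (11.1%), against 16.5% of the 11462 table genes with a 3′ UTR. The effector genes' 3′ UTRs were shorter, with a median of 864 bases against 1350.5. The other 3 genes with a match were Cmpk2, which was called in neither direction, and Trim30a and Sp100, which were higher in the mimic libraries. A match is a description and not a shown target.

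The promoter stretches below hold the core of the interferon-stimulated response element, GAAANNGAAA or its reverse TTTCNNTTTC, in capitals. They belong to effector genes whose values are given in full below and whose match lies before the transcription start.
Isg15: tagGAAAAGGAAACCGAAACAGAAAata
Ifitm2: caacagGAAAAGGAAAttgcta
Trim30a: ctttagTTTCTTTTTCtcagtt
Rsad2: tccaacTTTCATTTTCagaaaa
Ifit3, distal: ggtaagTTTCACTTTCctcttc
Ifit3, proximal: agtctgTTTCAGTTTCtacttt
All are printed 5′ to 3′ on the strand of the gene. In Isg15, at chr4:156200872-156200899 on the minus strand, 3 overlapping matches begin 78 bases before the start. The Ifitm2 match (chr7:140955992-140956013, minus strand) begins 46 bases before it, that of Trim30a (chr7:104465214-104465235, minus) 36 bases and that of Rsad2 (chr12:26456557-26456578, minus) 120 bases. The Ifit3 matches, at chr19:34583367-34583388 and chr19:34583401-34583422 on the plus strand, begin 156 and 122 bases before it. RefSeq windows of 300 bases, 250 before and 50 after a start, were matched for 26 of the 36 effector genes, and 9 of the 26 (34.6%) held the core on either strand, against 3.99% of 27025 genes. Counted by window, the shares were 10 of 31 (32.3%) and 3.44% of 32851. Ifit1 and Bst2 also held it before the start, and Trim21 and Ifitm3 held it at or past the start.

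Effector genes were higher in the mimic libraries than in the scramble libraries in most cases. Of the 36, 29 were called higher and 1, Herc6, lower, while 6 passed no test: Rsad2, Cmpk2, Parp9, Dtx3l, Trim25 and Ifi47. The share called higher was 80.6%, where 17.3% of all genes were called higher, 14.7% lower and 32% in either direction in the same comparison. The members, like the other lists used below, were chosen with earlier results of these data known. The excess over all genes may follow in part from that choice. All 4 mimic values lay above all 3 scramble values for 30 members (83.3%) and for 21.6% of all genes. They lay below them for 1 member, Herc6, and for 19.2% of all genes. The median log2 change was 1.06 for the effector genes and 0.00 for all genes. As a ratio of group means the members ranged from 0.749 to 8.99 with a median of 2.27, and 23 of them were at least 2-fold higher.

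The counts against PBS, the vehicle, were similar. Here 30 members were called higher and 1, again Herc6, lower, with 20% of all genes called higher, 17.1% lower and 37.1% in either direction. The 5 that were not called were Cmpk2, Parp9, Dtx3l, Trim25 and Ifi47. Fewer members were free of overlap than against scramble: 24 of 36 (66.7%) had all mimic values above all PBS values, against 17.2% of all genes. PBS replicate 2 was at or above the lowest mimic value in 11 members. The median log2 change was 0.97 and the ratios of means ranged from 0.838 to 10.6. The mimic libraries are the same in both comparisons, so the counts are not independent of each other.

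The scramble oligomer against PBS compares this particular oligomer with the vehicle, and no other control oligomer was tested. In this comparison 0 of the 36 effector genes passed limma's threshold, as did 0 of 13636 genes (0%), and the smallest adjusted p of a member was 0.9997. At an unadjusted p below 0.05 there were 0 members and 434 genes in all (3.18%). Fitted log2 changes of the members ran from -0.34 for Rtp4 to 0.19 for Ifi44, with a median of -0.05. All 3 scramble values lay above all 4 PBS values for 1 member, Herc6, where 2.33% of all genes did so, and below them for Mx2 and Rtp4, where 2.39% did so.

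**Figure D1:**
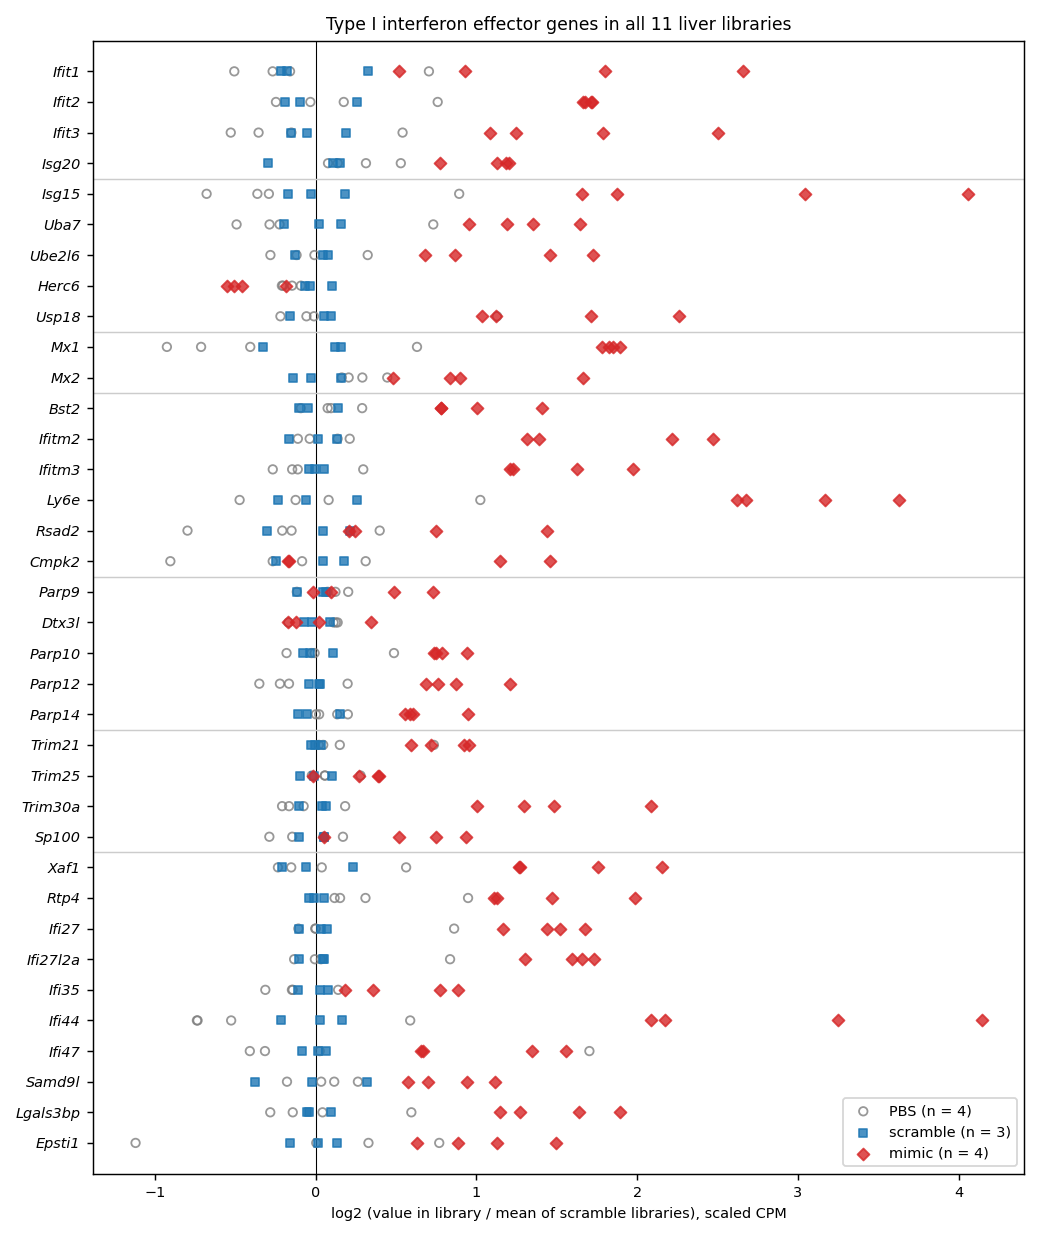
Value of each effector gene in each of the 11 libraries as log2 of its ratio to the scramble mean (x axis), with grey lines between the role groups. Mimic libraries (diamonds) lie to the right of the scramble libraries (squares) for 30 of 36 genes and to the left for Herc6, and single PBS libraries (circles) reach into the mimic range in genes such as Ifi47 and Usp18.

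**Figure D2:**
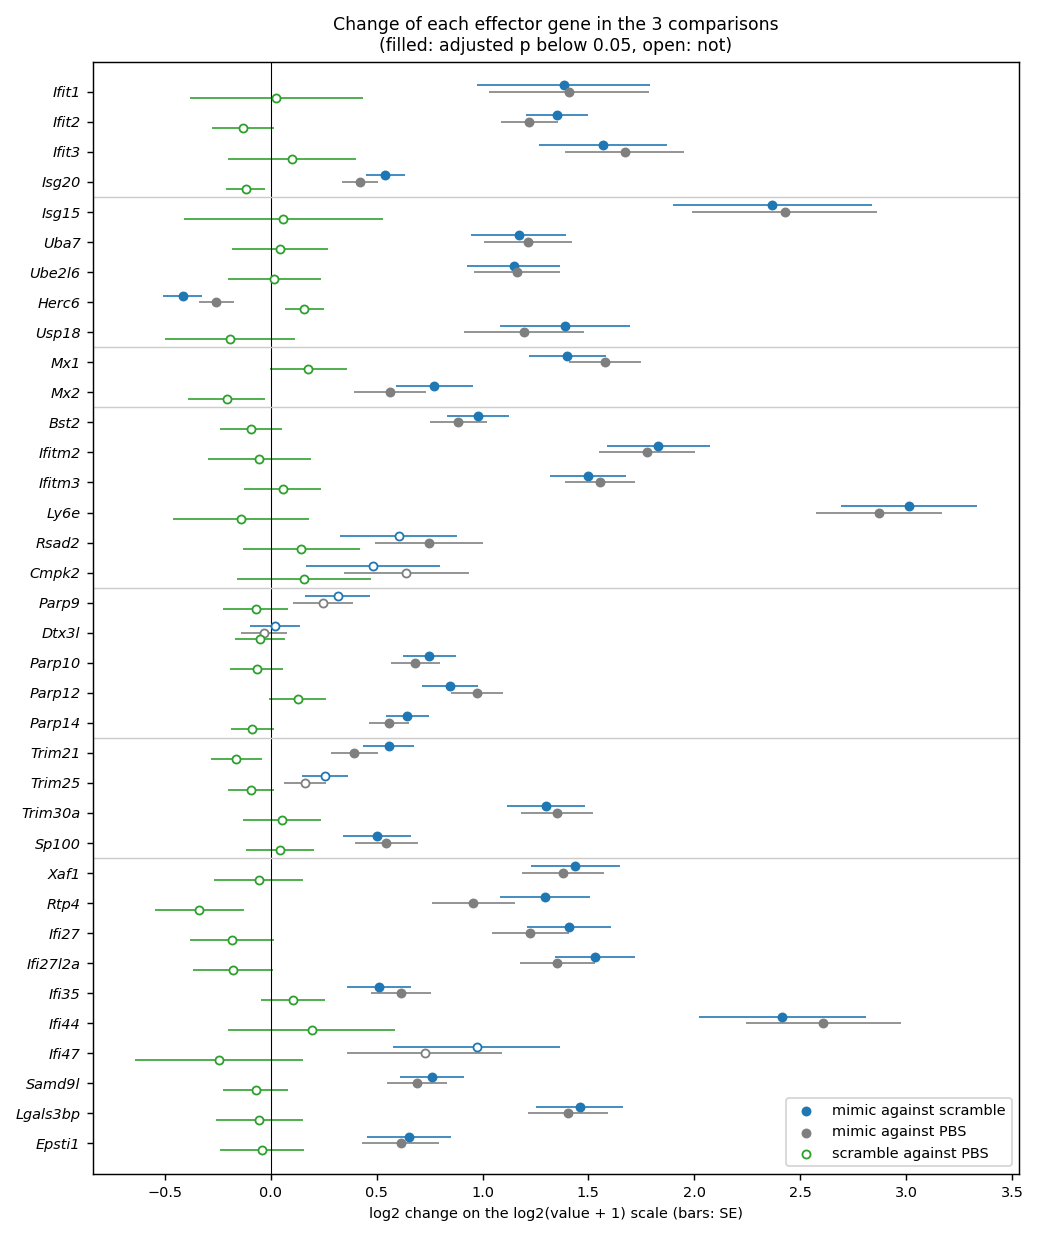
Log2 change with its SE for each effector gene in the 3 comparisons, on the log2(value + 1) scale; filled points had an adjusted p below 0.05. Filled points lie right of 0 for 29 genes against scramble and 30 against PBS, Herc6 lies left of 0 in both, and no point of scramble against PBS is filled.

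The group that blocks translation or degrades RNA holds Ifit1, Ifit2, Ifit3 and Isg20, and 4 of 4 were higher in both mimic comparisons. Ifit proteins bind foreign RNA or the translation machinery, and Isg20 is a 3′ to 5′ exonuclease. Ifit3 (chr19:34583531-34588731) had 8.94, 14.4, 6.88 and 7.76 in the PBS libraries 1 to 4, 11.3, 8.92 and 9.55 in scramble 1 to 3, and 56.2, 21.04, 23.5 and 34.2 in mimic 1 to 4. All mimic values were above the others, and mimic replicate 1 was the highest. Its log2 change was 1.57 ± 0.30 (SE) against scramble, with an adjusted p of 0.0029, and 1.67 ± 0.28 against PBS, with 0.0011.

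Ifit2 (chr19:34550694-34576419), 7111 bases from Ifit3 on the same strand, behaved differently among the mimic libraries. It had 2.171, 3.76, 2.51 and 1.87 in PBS, 1.94, 2.07 and 2.65 in scramble, and 7.31, 7.04, 7.10 and 7.28 in mimic. The mimic values were nearly level, with the highest 1.04 times the lowest, and they did not overlap with the other groups. The log2 change was 1.35 ± 0.15 against scramble (adjusted p 9.1e-05) and 1.22 ± 0.14 against PBS (8.6e-05). Ifit1, the third gene of this cluster, ranged from 9.96 to 44.0 in mimic, from 5.99 to 8.74 in scramble and from 4.90 to 11.3 in PBS. The lowest mimic value of Ifit1 fell inside the PBS range. Its log2 change of 1.38 ± 0.41 against scramble passed at an adjusted p of 0.024, which became 0.071, 0.072 and 0.059 without scramble replicate 2, scramble replicate 3 or mimic replicate 4. Isg20 (chr7:78913424-78920396) was low throughout, at 0.995, 0.856, 0.727 and 0.758 in PBS, 0.742, 0.766 and 0.562 in scramble and 1.57, 1.59, 1.18 and 1.505 in mimic. The mimic values did not overlap with the other groups, and their mean was 2.12 times the scramble mean (adjusted p 0.0014). All PBS and scramble values of Isg20 were below 1, so it may have passed the low-CPM filter through mimic values alone. Its call and its lack of overlap are then not independent of that filter.

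ISG15 is a ubiquitin-like protein that is joined to other proteins by an activating enzyme (Uba7), a conjugating enzyme (Ube2l6) and a ligase (Herc6 in mice), and removed by the protease Usp18, which also restrains the interferon receptor. Of these 5 genes 4 were higher in the mimic libraries and the ligase was lower. Isg15 (chr4:156199424-156200818) had 2.74, 6.24, 2.61 and 2.10 in PBS, 3.81, 3.29 and 2.98 in scramble, and 56.0, 10.6, 12.3 and 27.8 in mimic. Every mimic value exceeded every other value, yet mimic replicate 1 was 5.30 times replicate 2, the widest span among the 29 genes called higher against scramble. The mean was 26.7 ± 21.05 in mimic (SD, n = 4) and 3.36 ± 0.420 in scramble (SD, n = 3), a log2 change of 2.37 ± 0.47 (SE) with an adjusted p of 0.0035. Against PBS the change was 2.43 ± 0.44, with 0.0017.

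Uba7 (chr9:107975505-107984060) had 5.17, 10.5, 5.40 and 4.49 in PBS, 7.03, 6.40 and 5.51 in scramble, and 19.7, 14.4, 12.2 and 16.1 in mimic. The mimic values were apart from the other groups, with PBS replicate 2 nearest to them. The log2 changes were 1.17 ± 0.23 (adjusted p 0.0030) and 1.22 ± 0.21 (0.0013) against scramble and PBS. Ube2l6 (chr2:84798828-84810335) had 18.8, 23.7, 17.4 and 15.6 in PBS, 19.6, 19.9 and 17.3 in scramble, and 62.7, 34.6, 30.4 and 52.1 in mimic. Mimic replicates 1 and 4 were the highest and no mimic value overlapped with another group, at log2 changes of 1.15 ± 0.22 and 1.16 ± 0.20. Usp18 ranged from 11.5 to 27 in mimic, from 5.04 to 6.02 in scramble and from 4.84 to 12.3 in PBS, where replicate 2 was the highest. It was 3.07-fold higher than scramble by means (adjusted p 0.0060) and 2.46-fold higher than PBS (0.0075).

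Herc6, the principal ISG15 ligase of mice, went the other way (chr6:57581000-57664632). Its values were 60.3, 62.7, 65.1 and 59.97 in PBS, 66.1, 74.5 and 67.6 in scramble, and 61.1, 48.9, 50.6 and 47.4 in mimic. All mimic values were below all scramble values, while mimic replicate 1 lay among the PBS values. The log2 change was -0.42 ± 0.09 against scramble (adjusted p 0.0059) and -0.26 ± 0.08 against PBS (0.033). The call against PBS was lost without any single PBS library or without mimic replicate 2, 3 or 4, at adjusted p from 0.051 to 0.095. Both directions turned when values were divided by library totals alone, to 0.16 and 0.34, a scaling under which the median of all genes moved to 0.49 and 0.51. Relative to that median Herc6 stood at -0.33 and -0.16.

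The Mx proteins are dynamin-like GTPases that trap viral nucleocapsids, and both genes, 72400 bases apart on chromosome 16, were higher. Mx1 (chr16:97447035-97462907) had 1.30, 2.66, 0.905 and 1.05 in PBS, 1.87, 1.37 and 1.92 in scramble, and 6.21, 6.10, 6.40 and 5.92 in mimic. As in Ifit2, the mimic libraries were nearly level and far from the rest. The log2 change was 1.40 ± 0.18 against scramble (adjusted p 3.0e-04) and 1.58 ± 0.17 against PBS (7.4e-05). C57BL/6 mice are known to carry a defective Mx1 allele, and the RNA level of neither Mx gene says anything of a working protein. Mx2 (chr16:97535308-97560900) had 3.23, 3.59, 3.04 and 2.95 in PBS, 2.58, 2.39 and 2.95 in scramble, and 8.37, 3.68, 4.91 and 4.71 in mimic. Mimic replicate 2 was barely above PBS replicate 2. The log2 change was 0.77 ± 0.18 against scramble (adjusted p 0.0085) and 0.56 ± 0.17 against PBS (0.022), and the latter became 0.055 without PBS replicate 3 and 0.058 without PBS replicate 4.

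Proteins of membranes and lipid surfaces make up the next group: Ifitm2 and Ifitm3, which block fusion of viruses in endosomes, Ly6e, a GPI-anchored protein that restricts coronavirus entry, Bst2 (tetherin), which holds budding particles at the cell surface, and Rsad2 (viperin), an enzyme of lipid droplets and endoplasmic reticulum, with its neighbour Cmpk2, a mitochondrial nucleotide kinase. Of these 6 genes 4 were higher against scramble and 5 against PBS. Ly6e (chr15:74955051-74959905) had 53.1, 102, 46.0 and 36.2 in PBS, 42.6, 59.9 and 48.1 in scramble, and 621, 322, 309 and 452 in mimic. Every mimic library lay far above PBS replicate 2, the highest of the others. With a log2 change of 3.01 ± 0.32 against scramble (adjusted p 8.2e-05) and 2.87 ± 0.30 against PBS (5.7e-05), Ly6e had the largest fitted change of the 36 genes in both comparisons.

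Ifitm2 (chr7:140954837-140955987) had 48.6, 46.1, 38.9 and 40.9 in PBS, 37.5, 42.4 and 46.0 in scramble, and 233, 104, 110 and 195 in mimic. Ifitm3 (chr7:141009586-141010770), 53598 bases away on the same strand, had 77.9, 106, 79.8 and 71.6 in PBS, 83.7, 89.2 and 85.8 in scramble, and 339, 200, 202 and 266 in mimic. In both genes all mimic libraries were above all others and replicates 1 and 4 were the upper pair of mimic values. Log2 changes against scramble were 1.83 ± 0.24 for Ifitm2 (adjusted p 3.3e-04) and 1.498 ± 0.18 for Ifitm3 (1.8e-04). Bst2 ranged from 72.1 to 112 in mimic, 39.2 to 46.4 in scramble and 39.4 to 51.4 in PBS, a 2.02-fold difference of the mimic and scramble means (adjusted p 6.6e-04).

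Rsad2 (chr12:26442746-26456452) and Cmpk2 (chr12:26469204-26479837) lie 12751 bases apart on opposite strands, and in both the mimic libraries were spread widely. Rsad2 had 5.88, 8.60, 3.75 and 5.65 in PBS, 7.58, 5.28 and 6.72 in scramble, and 17.7, 7.72, 7.53 and 10.9 in mimic. Cmpk2 had 2.99, 3.93, 1.69 and 2.63 in PBS, 3.57, 2.67 and 3.26 in scramble, and 8.70, 2.82, 2.82 and 6.998 in mimic. For each gene mimic replicates 1 and 4 lay above every other library and replicates 2 and 3 lay within the range of the other groups. Against scramble the log2 change was 0.60 ± 0.28 for Rsad2 (adjusted p 0.11) and 0.48 ± 0.32 for Cmpk2 (0.26), so neither was called. Against PBS the values were 0.75 ± 0.26 (0.039) and 0.64 ± 0.29 (0.11). The call of Rsad2 against PBS was lost without PBS replicate 1, 3 or 4 or without mimic replicate 1 or 4, at adjusted p from 0.071 to 0.11. Cmpk2 passed against PBS without mimic replicate 2 (0.045) or 3 (0.044).

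The ADP-ribosylation group holds Parp10, Parp12 and Parp14, mono-ADP-ribosyltransferases, and Parp9 with its partner Dtx3l, a ubiquitin ligase. In both mimic comparisons 3 of 5 were higher and the Parp9 and Dtx3l pair was not called. Parp12 (chr6:39086410-39118349) had 14.3, 20.9, 16.3 and 15.6 in PBS, 18.5, 18.6 and 17.7 in scramble, and 42.1, 29.3, 30.9 and 33.5 in mimic. Parp10 (chr15:76231174-76243441) had 10.1, 14.2, 9.94 and 8.92 in PBS, 10.9, 9.87 and 9.59 in scramble, and 19.5, 17.0, 16.8 and 17.5 in mimic. In both genes the mimic values were free of overlap with the other groups, and those of Parp10 were close together. The log2 changes of Parp12 and Parp10 against scramble were 0.85 ± 0.13 (adjusted p 9.8e-04) and 0.75 ± 0.13 (0.0013).

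Parp14 (chr16:35832874-35871544) had 14.97, 17.2, 15.2 and 16.4 in PBS, 16.6, 13.9 and 14.4 in scramble, and 28.9, 22.02, 22.5 and 22.8 in mimic. Mimic replicate 1 stood above 3 level replicates, all of them above the other groups, and the log2 change was 0.65 ± 0.10 (adjusted p 9.7e-04). Parp9 (chr16:35938470-35972605) had 32.5, 35.5, 28.4 and 33.6 in PBS, 31.9, 28.5 and 32.3 in scramble, and 51.1, 30.5, 32.9 and 43.2 in mimic. Dtx3l (chr16:35926511-35939151) had 26.5, 26.0, 21.4 and 26.3 in PBS, 23.7, 22.9 and 25.6 in scramble, and 30.5, 21.4, 22.1 and 24.4 in mimic. The Parp9 values of mimic replicates 1 and 4 exceeded all others, while Dtx3l overlapped in all but replicate 1. Log2 changes against scramble were 0.32 ± 0.15 for Parp9 (adjusted p 0.14, and 0.044 without mimic replicate 2) and 0.02 ± 0.12 for Dtx3l (0.92). Their gene models overlap by 682 bases on opposite strands, and the strand setting of the counting is not given in the sources used here.

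Among the TRIM proteins and nuclear bodies 3 of 4 genes were higher: Trim30a, a regulator of innate signalling found in mice, Trim21, a cytosolic antibody receptor and ubiquitin ligase, and Sp100, a component of PML nuclear bodies. Trim30a (chr7:104409025-104465193) had 4.06, 5.32, 4.45 and 4.18 in PBS, 4.89, 4.36 and 4.82 in scramble, and 19.9, 11.5, 9.39 and 13.1 in mimic. No mimic value of Trim30a overlapped with another group, at a log2 change of 1.30 ± 0.18 (adjusted p 5.0e-04). Trim21 (chr7:102557921-102565486) had 1.96, 2.94, 1.83 and 1.79 in PBS, 1.81, 1.73 and 1.76 in scramble, and 3.34, 2.66, 3.42 and 2.91 in mimic. PBS replicate 2 was inside the mimic range, while the scramble values were tightly grouped below it. The log2 change of Trim21 was 0.56 ± 0.12 against scramble (adjusted p 0.0055) and 0.39 ± 0.11 against PBS (0.018, and 0.054 or 0.053 without PBS replicate 3 or 4).

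Sp100 (chr1:85649988-85709998) had 5.52, 6.87, 5.00 and 6.31 in PBS, 6.32, 5.69 and 6.32 in scramble, and 6.33, 11.7, 10.3 and 8.77 in mimic. Its order among the mimic libraries was unlike that of Isg15: replicate 1 was the lowest and replicate 2 the highest. The log2 change against scramble was 0.50 ± 0.16 (adjusted p 0.033), and the call was lost when any of the 3 scramble libraries or mimic replicate 2, 3 or 4 was left out, at 0.058 to 0.097. Trim25 (chr11:88999376-89020293), the ubiquitin ligase that acts with the RNA sensor RIG-I, had 46.5, 37.7, 39.9 and 39.9 in PBS, 41.1, 35.7 and 38.1 in scramble, and 50.2, 50.4, 46.1 and 37.9 in mimic. Mimic replicate 4 lay within the scramble range, and the log2 change of 0.25 ± 0.11 was not called (adjusted p 0.091, and 0.023 without that library).

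The remaining 10 effectors have varied or less defined roles, and 9 of them were higher in both mimic comparisons. Ifi27 (chr12:103434211-103440239), which encodes a small protein of mitochondrial and nuclear membranes, had 20.5, 37.2, 20.5 and 19.03 in PBS, 20.98, 21.5 and 19.05 in scramble, and 65.5, 58.9, 45.9 and 55.6 in mimic. Its relative Ifi27l2a (chr12:103442167-103443680) had 22.8, 39.7, 22.2 and 20.3 in PBS, 23.0, 23.0 and 20.7 in scramble, and 73.9, 70.2, 54.8 and 67.4 in mimic. The ratio of the 2 genes stayed between 0.825 and 0.938 in all 11 libraries, and RefSeq places Ifi27 wholly within the span of Ifi27l2a, with 6057 shared bases. The 2 rows may therefore hold the same reads. The counts given for the effector genes include both, and with the pair taken as 1 gene 28 of 35 (80.0%) were higher against scramble and 29 of 35 (82.9%) against PBS, and 8 of 9 in this role group. Log2 changes against scramble were 1.41 ± 0.20 and 1.53 ± 0.19.

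Lgals3bp (chr11:118392751-118402092), a secreted glycoprotein that binds galectins, had 30.4, 44.5, 26.7 and 24.2 in PBS, 31.5, 28.6 and 28.4 in scramble, and 110, 71.1, 65.2 and 91.9 in mimic. The mimic values were all higher than the others, with replicates 1 and 4 on top, at a log2 change of 1.46 ± 0.21 (adjusted p 4.7e-04). Ifi44, a cytosolic protein of unsettled function, ranged from 7.99 to 33.3 in mimic, from 1.62 to 2.11 in scramble and from 1.13 to 2.83 in PBS. Its 8.99-fold difference of means against scramble was the largest ratio among the 36 genes, as was its 10.6-fold against PBS, and the log2 changes were 2.42 ± 0.40 (adjusted p 0.0012) and 2.61 ± 0.37 (3.7e-04).

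Xaf1, a binding partner of an apoptosis inhibitor, was 3.16-fold higher than scramble by means, Rtp4, a chaperone of surface receptors, 2.77-fold, and Samd9l, a translation inhibitor, 1.799-fold. None of these 3 overlapped with either comparison group. Ifi35 was 1.49-fold and Epsti1 2.10-fold higher than scramble, at adjusted p of 0.024 and 0.027. The call of Ifi35 was lost without scramble replicate 1 (0.061) or 3 (0.082) or mimic replicate 1 (0.058) or 4 (0.065). That of Epsti1 was lost without scramble replicate 1 (0.087), 2 (0.053) or 3 (0.067) or mimic replicate 2 (0.061) or 3 (0.050), and against PBS without PBS replicate 1 (0.050) or 4 (0.051) or mimic replicate 2 (0.058).

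Ifi47 (chr11:49076587-49096974) was not called, although its 4 mimic values were above the 3 scramble values. It had 5.78, 25.0, 7.80 and 6.16 in PBS, 8.02, 7.76 and 7.24 in scramble, and 22.6, 12.1, 12.2 and 19.5 in mimic. PBS replicate 2 was the highest of all 11 libraries, and the PBS mean was 11.2 ± 9.24 (SD, n = 4). The log2 change was 0.97 ± 0.40 against scramble (adjusted p 0.079) and 0.73 ± 0.37 against PBS (0.14). Without PBS replicate 2, whose spread enters the shared estimate, they were 0.97 (0.0039) and 1.17 (0.0011). The model of Ifi47 shares its 20388 bases with that of Olfr56 on the same strand, and the ratio of the 2 rows ran from 0.396 to 0.672, so its reads could have been split.

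**Figure D3:**
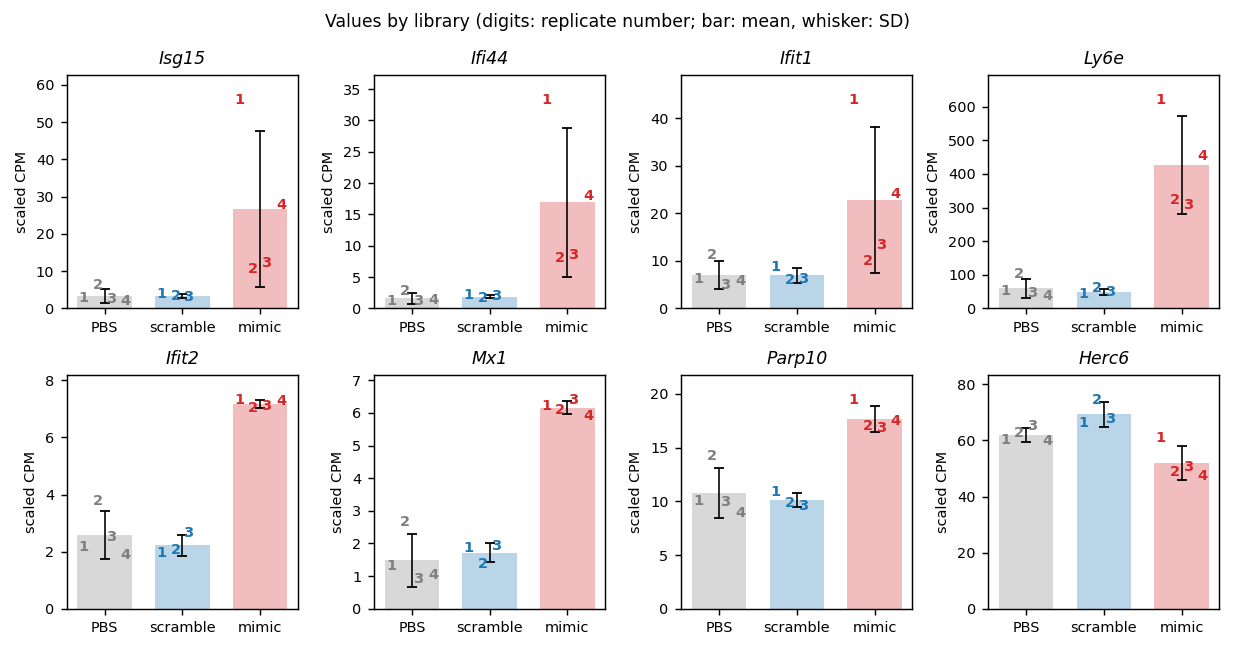
Scaled CPM of 8 effector genes by group; digits are the libraries' replicate numbers, bars group means and whiskers SD. In Isg15, Ifi44, Ifit1 and Ly6e mimic replicates 1 and 4 are the upper values, in Ifit2, Mx1 and Parp10 the 4 mimic values lie close together, and Herc6 is lower in mimic than in scramble.

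The genes thus differed in how evenly they were higher across the mimic libraries. Among the 29 called higher against scramble, the highest mimic value divided by the lowest had a median of 1.70 and ran from 1.04 for Ifit2 to 5.30 for Isg15. It was at least 2 in 10 genes and below 1.5 in 10. Graded genes included Ifit1 (4.42), Ifi44 (4.17), Ifit3 (2.67) and Usp18 (2.34), and level ones Mx1 (1.08) and Parp10 (1.16). Mimic replicate 1 was the highest mimic library in 30 of the 36 members and in 26.2% of all genes. The lowest was replicate 2 in 20 members (26.4% of all genes) and replicate 3 in 11 (25.8%). With library totals alone replicate 1 was the highest in 32 members, and replicate 2 was the lowest in 3 and replicate 3 in 33. The even level of some genes rests on the authors' scaling: divided by library totals alone, the same ratio was 1.75 for Ifit2, 1.58 for Mx1 and 7.39 for Isg15.

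As a ratio to the scramble mean, the median effector gene stood at 3.15, 1.98, 1.92 and 2.55 in mimic replicates 1 to 4, and with library totals alone at 5.64, 2.61, 2.11 and 4.77. On the authors' scaling the same median was 1.04, 0.973 and 0.972 in the scramble libraries and 0.993, 1.38, 0.925 and 0.873 in the PBS libraries. PBS replicate 2 was thus the uppermost of the 7 control libraries, and it was the highest PBS value in 31 of 36 members, where it was so for 34.1% of all genes. Every mimic library was above it in this median. When mimic replicates 1 and 4 were left out together, 27 members were called higher against scramble and 24 against PBS, with median log2 changes of 0.76 and 0.77. Of all 13636 genes 2548 were then called against scramble, 971 of them lower, and 2894 against PBS, 1142 of them lower.

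Markers of other cell types moved in the same comparison. The summed level of the 11 markers of recruited monocytes and macrophages, all measured, was 140, 237, 181 and 175 in mimic replicates 1 to 4, against 33.2 to 83.2 in PBS and 35.0 to 55.0 in scramble, and 9 of the 11 were higher against scramble. For neutrophils 6 of 10 listed markers were measured, their sum was 17.1 to 36.9 in mimic, 1.29 to 1.87 in scramble and 1.86 to 2.79 in PBS, and 6 of 6 were higher. Ltf was at 0 in scramble replicates 1 and 3 and Ngp in PBS replicate 4. S100a8, S100a9, Mmp9, Ltf and Ngp were below 1 in every PBS and scramble library. So were Gpnmb, Trem2, Ly6c2 and Cx3cr1 among the monocyte and macrophage markers, and Ccr2 was below 1 there in all but PBS replicate 2. These genes may have passed the low-CPM filter through mimic values alone, so that being higher was largely set by the filter. The 8 resident Kupffer cell markers summed to 38.8 to 75.9 in mimic, 67.8 to 130 in scramble and 71.6 to 140 in PBS, with 5 of 8 lower. Of 8 markers of plasmacytoid dendritic cells, known makers of type I interferon, 3 were measured. Their sums were 43.4 to 49.5 in mimic, 34.1 to 38.2 in scramble and 33.7 to 40.9 in PBS. Against scramble 2 of 3, Ccr9 and Ly6d, were higher, and Tcf4 was not called (log2 change 0.12, adjusted p 0.52). Ly6d was below 1 in every scramble library and in all PBS libraries but replicate 2. It may have passed the low-CPM filter through mimic values, so its call is not independent of that filter. Most of each sum was Ccr9, whose lowest mimic value (33.4, replicate 2) was below PBS replicate 2 (33.6). Whether these cells differed in number was not tested. Sums for 8 endothelial markers overlapped, at 66.2 to 107 in mimic and 73.2 to 93.3 in the others, and the 14 listed lymphocyte markers were not analysed here. With library totals alone the monocyte and macrophage sums were 220, 272, 175 and 289 in mimic replicates 1 to 4, against 30.6 to 71.1 in the other groups, and the neutrophil sums 26.9, 26.5, 35.8 and 39.2, against 0.934 to 2.39. Both lists stayed above the other groups, but which mimic library was lowest depended on the scaling. The Kupffer cell sums overlapped between groups on either scaling, with library totals at 61.0 to 87.1 in mimic and 60.3 to 142 in the others. The hepatocyte sums, apart on the authors' scaling, overlapped with library totals, at 34889.4 to 51246.7 in mimic and 29124.2 to 46718.5 in the others. The part of these cells in the effector genes' levels was not tested.

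**Figure D4:**
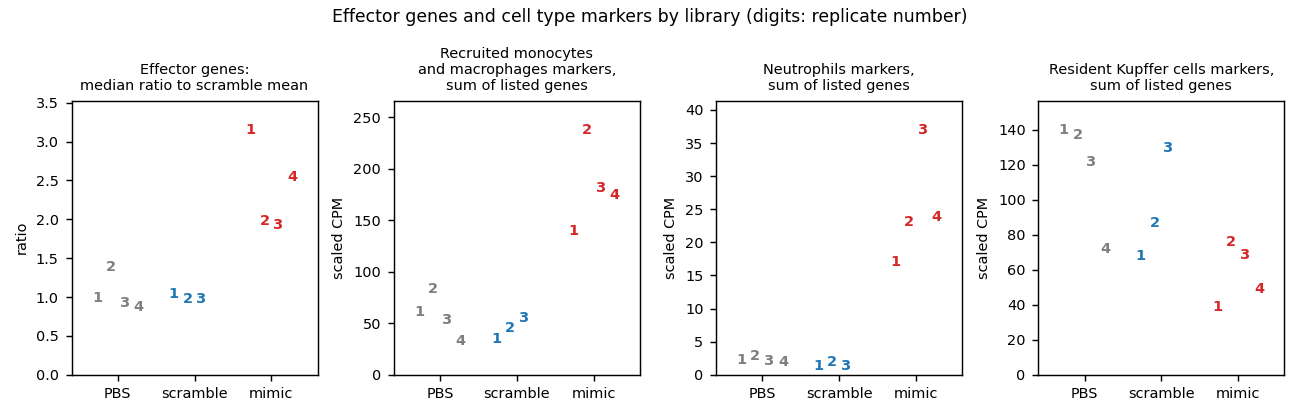
Median ratio of the effector genes to their scramble mean in each library (left) and summed scaled CPM of 3 marker lists (right), with digits for replicate numbers. All mimic libraries lie above the others for the effector genes and for the monocyte and neutrophil markers, and the order of the mimic libraries in the marker panels depends on the scaling.

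Genes upstream of and beside the effectors were read from 8 lists, of which 59 of 72 genes were measured. Against scramble 33 of the 59 were higher and 1 lower, and against PBS 30 and 1, so that 55.9% were called higher against scramble beside the 17.3% of all genes. The 8 listed interferon genes were not analysed here. Of the receptors and their kinases 5 of 8 were higher, with changes that were mostly small. Il10rb, a subunit of the interferon lambda and interleukin-10 receptors, had a log2 change of 0.94 and Ifngr1, of the interferon gamma receptor, of 0.64. The change of Ifnar2 was 0.30 (adjusted p 0.023), and Ifnar1, the other chain of the type I receptor, was not called at 0.16 (0.15).

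Among the STAT and IRF factors 4 of 8 (50%) were higher, beside 17.3% of all genes. Irf7, the factor that amplifies interferon production, averaged 103 ± 19.7 in mimic (SD, n = 4), 19.7 ± 1.79 in scramble (SD, n = 3) and 19.9 ± 4.13 in PBS (SD, n = 4). Its log2 change of 2.31 ± 0.16 against scramble had an adjusted p of 8.1e-06. Stat2 had a log2 change of 0.58 ± 0.11 (0.0034). Against PBS 3 of the 8 (37.5%) were called, where 20% of all genes were higher. Without PBS replicate 2, the highest PBS library in all 8, the count was 6 (75%) in each comparison. The share of all genes was then 19.1% against scramble and 22% against PBS. That library was left out after the data were seen, so the rise in counts follows in part from that choice. Of 6 negative regulators 1 (16.7%) was higher, the phosphatase gene Ptpn6 (0.68), and 1 lower, the phosphatase gene Ptpn11 (-0.34). These shares were near those of all genes, 17.3% higher and 14.7% lower.

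Of the nucleic acid sensors 8 of 11 were higher, among them Dhx58, a relative of RIG-I, at 1.32 and Tlr7, the endosomal receptor of single-stranded RNA, at 1.05. Oligoadenylate synthetases and RNase L, which degrade RNA on sensing its double-stranded form, were higher in 8 of 8 cases, with log2 changes of 2.30 for Oas1g and 2.59 for Oas1a. Oas3 and Tlr7 were below 1 in every PBS and scramble library. Oas1b and another of the sensor genes, Tmem173, were below 1 there in all but PBS replicate 2. These genes may have passed the low-CPM filter through mimic values, so their calls are not independent of it. Of the immunity-related and guanylate-binding GTPases 2 of 11 (18.2%) were called, a share near the 17.3% of all genes: Gbp9 (1.48) and Gbp3 (1.62), at a median log2 change of 0.83 over the 11. PBS replicate 2 was the highest PBS library in 11 of these 11 genes and in 34.1% of all genes. Without it 6 were called against scramble, where 19.1% of all genes were higher, and 11 against PBS, where 22% were. The library was left out after the data were seen, so the rise in calls follows in part from that choice, and the shares of all genes are not a like reference. Gbp5 was above 1 only in that library and in mimic replicates 1 and 4, so its place among the genes may depend on them. Of genes typically induced by interferon gamma 5 of 7 were higher against scramble and 3 of 7 (42.9%) against PBS, where 20% of all genes were. They included Psmb8, an immunoproteasome subunit (1.15), and Cxcl9, a chemokine that draws T cells (2.13). In 7 of 7 the highest PBS library was replicate 2, so the same limit holds here. Without it 7 were called in each comparison, where 19.1% of all genes were higher against scramble and 22% against PBS. Ciita, 1 of the 7, was below 1 in every scramble library and in all PBS libraries but replicate 2. It may have passed the low-CPM filter through mimic values, so its calls without that library are not independent of the filter. No difference between these lists was tested.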

How the data were processed

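Per the labels' protocols, stranded mRNA libraries from frozen liver RNA were sequenced as paired-end reads. RNA integrity numbers of 8.4 to 9.2 are given for 7 of 11 libraries. The submitters' processing notes name edgeR 3.8.6, R 3.1.2, Bowtie, bedtools 2.17.0, SAMtools 0.1.19, FastQC 0.11.3, bcl2fastq 1.8.4 and build mm10. Annotation, settings and strand setting are not given in the sources used here. The deposited values are a scaled signal, called scaled CPM here: columns sum to 605536 to 1504311, and all values (100%) of a column are whole multiples of 1 step (tolerance 1e-06), from which the reads counted were taken.

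Groups came from the titles. limma 3.58.1 (R 4.3.3) was fitted to log2(value + 1), with 3 group means over 11 libraries, a variance trend and Benjamini-Hochberg adjustment over 13636 genes at 0.05, and was checked on simulated data. The plan had assumed CPM. By the name of the deposited values, the genes appear to be those above 1 CPM in at least 3 libraries. Coordinates and 3′ UTRs are from GENCODE M21 (GRCm38). Promoter and microRNA sequences are from RefSeq tables (GRCm38.p6). Members and lists were chosen with earlier results of these data known. In each role group, values in every library are given for the 3 members with the smallest p against scramble, for members not called and for those lower. Of each pathway list the 2 genes with the smallest p and any called the other way are named, and Ifnar1 and Ifnar2 were added after their values were seen. Alternatives changed the pseudocount (to 0.25), the filter on low values (mean of 1 or 5), the scaling, the replicate block, the libraries fitted, the trend and the library weights, or left out libraries. The counts of pathway genes without PBS replicate 2 were added after seeing the data.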

Additional observations from a re-analysis of the deposited data

Results flagged for a closer look

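In groups of 4 libraries, one library was marked where its gap to the nearest other, as a share of the group's range, exceeded Dixon's critical value. This was met by 10 of 72 groups tested over the 36 effector genes in PBS and mimic, where chance marks about 1 in 20, and the genes share libraries.

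PBS replicate 2 was the high one in 8 of the 10. The gap was 0.8438 of the range for Isg15, 0.8474 for Uba7, 0.8994 for Usp18, 0.8531 for Trim21, 0.8945 for Ifi44 and 0.8943 for Ifi47. Ifi27 and Ifi27l2a, whose rows may share reads, had 0.9188 and 0.8724. Without this library 31 members were called higher in mimic than in PBS in place of 30.

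Dtx3l was low in PBS replicate 3, with a gap of 0.9095. Parp14 was high in mimic replicate 1, with a gap of 0.8888.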

How the results depend on the processing

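Of the 29 members called higher against scramble, 25 kept their call in each of 22 alternatives in which they were measured, and of the 30 against PBS 23 did. Those that lost it in at least 1 were Ifit1, Sp100, Ifi35 and Epsti1 against scramble, and Ifit1, Usp18, Mx2, Rsad2, Trim21, Ifi35 and Epsti1 against PBS. None of them changed direction. Both rows of Ifi27 and Ifi27l2a are in these counts. The number called higher stayed at 23 (of 29 measured, mean of at least 5) to 34 (library totals) against scramble and at 24 to 34 against PBS. Leaving out 1 library gave 25 to 30 and 26 to 31, and scramble against PBS gave 0 members throughout.

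With library totals alone the split of all genes was 5498 higher and 110 lower against scramble and 6882 and 120 against PBS, in place of 2363 and 2000 and of 2733 and 2326. The members' median was then 1.63 and 1.54, or 1.14 and 1.04 above that of all genes. Herc6 turned to 0.16 against scramble and 0.34 against PBS, and Dtx3l to 0.56 against PBS. Dtx3l, which was not called in any alternative, also changed sign against PBS with quantile normalization (0.027), library weights (0.027) and without mimic replicate 2 or 3, in a range of -0.14 to 0.029 when 1 library was left out. Against scramble it ran from -0.085 (without mimic replicate 1) to 0.079. Without mimic replicates 1 and 4 together, the change against scramble was -0.14 for Dtx3l and -0.12 for Cmpk2, and that of Parp9 against PBS -0.032. The cause of these sign changes was not tested.

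Over all genes, the calls against scramble numbered 2816 with a mean of at least 5, where fewer genes were tested, 2548 without mimic replicates 1 and 4, with fewer samples, and 2824 to 4904 when 1 library was left out, the lowest without scramble replicate 1. Against PBS they numbered 3273, 2894 and 3758 to 5681. Scramble against PBS had 5 calls when only those groups were fitted, and 0 to 1 when 1 library was left out.

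Deviations of same-numbered libraries correlated at -0.2767 to 0.2577, and those of differently numbered libraries at -0.4021 to 0.3528. No pairing by replicate number was visible, but so few libraries per group cannot show that there was none. With the replicate block 28 members were called higher against scramble and 30 against PBS, with 3808, 4584 and 0 calls over all genes. Ifi35 and Sp100 then missed the threshold against scramble (adjusted p 0.052 each), as did Herc6 against PBS (0.059), and Trim25 passed (0.043). The edgeR and DESeq2 alternatives were not run, because the criterion for treating the values as whole reads, which looks at low values only, was met in 2 of the 11 columns. The mimic libraries held the fewest reads, and counting precision is lowest where values are low, as in Isg20 and Epsti1.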
